A study of Mus musculus with 6 samples.

Results

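The endothelial and blood lineage genes followed here were 10 genes chosen by symbol: the transcription factor genes *Ets1*, *Etv2*, *Tal1*, *Gata2* and *Sox18*, the receptor genes *Kdr*, *Flt1* and *Tek*, and the junction genes *Cdh5* and *Pecam1*. All 10 were present among the 35565 gene identifiers of the count table. The table held 6 bulk RNA-seq libraries of gastruloids, which are aggregates of mouse embryonic stem cells (mESCs) that elongate and lay out a body axis in culture, collected at day 5. All libraries derived from the TBV2 129/SvP mESC line and from aggregates given a pulse of CHIR99021, which blocks the kinase GSK3 and so stimulates the WNT pathway. The 3 Control libraries carry the genotype label WT and came, by the methods of the study, from non-targeting (NT) cells. The other 3 carry the label KD-1, a knockdown of *T-UCstem1*, a long non-coding RNA that holds an ultraconserved element. KD-1 is a single clone, so that effects of the knockdown and of the clone cannot be told apart, and each library pools whole aggregates of mixed cell types. *T-UCstem1* itself was not analysed here, so its knockdown was not checked in these libraries.

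In the embryo, endothelium and the first blood cells arise from mesoderm that expresses KDR, the main receptor for vascular endothelial growth factor (VEGF). ETV2, a factor of the ETS family, switches this programme on and acts upstream of *Tal1*, *Gata2* and *Kdr*, and later ETS factors such as ETS1, FLI1 and ERG maintain it. TAL1 and GATA2 work together in blood progenitors, and SOX18 acts in arterial and lymphatic endothelium. FLT1 binds VEGF and limits its action on KDR, TEK (TIE2) is the receptor for angiopoietins, and the proteins of *Cdh5* (VE-cadherin) and *Pecam1* (CD31) join endothelial cells at their contacts. Several of the genes are known elsewhere too: *Pecam1* in undifferentiated mESCs, *Ets1* in neural crest and other mesenchyme, *Gata2* and *Tal1* in spinal interneurons, and *Flt1* and *Gata2* in trophoblast.

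Sequencing depth was between 20982249 and 85561026 counts per library. Columns of the table name a group but not which numbered sample of it, so libraries are called here by their depth within the group, as lowest, middle and highest. Levels are given in CPM, the usual counts relative to library size, after scaling by the trimmed mean of M values (TMM). A gene was called when the quasi-likelihood test of edgeR gave a Benjamini-Hochberg adjusted p under 0.05 and the fold change exceeded 1.5 in either direction. The submitters describe the libraries as biological replicates, and p-values measure the spread between them.

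The name of the lineage was first set against its own markers. Of 13 blood cell genes, 5 had at most 3 counts in every library, among them *Ptprc* (CD45) and *Csf1r*, and *Pf4* had 0 counts throughout. *Gata1*, the master factor of red cells, gave at most 2 counts in any library and *Gfi1b* gave 0. Of 8 endothelial markers, *Cdh5*, *Tie1* and *Emcn* were too low to be tested. *Egfl7* and *Esam* were not called, and *Pecam1*, *Tek* and *Cldn5* were higher in KD-1. Several markers of blood and of endothelium were thus at or near the counting floor. Others of blood were not: *Hbb-bh1* had 9, 17 and 28 counts in Control and *Itga2b* 20, 38 and 87, and both were called lower in KD-1. *Kit*, with 513 to 1573 Control counts, was called higher. The 10 genes are described below one by one rather than as an amount of either tissue. In bulk libraries, fewer cells of a type and less RNA per cell cannot be told apart.

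Promoter sequence is shown for *Tek*, *Kdr* and *Etv2*, the called genes with an entry in the RefSeq table used (build GRCm38.p6), because the first rose while the other two fell. Each run is the 250 bases before the transcription start, written 5′ to 3′ on the strand of the gene: chr4:94739039-94739288 (+ strand) for *Tek*, chr5:75978456-75978705 (- strand) for *Kdr* and chr7:30635853-30636102 (- strand) for *Etv2*. Capitals mark the ETS motif AGGAAG read on either strand.
Tek: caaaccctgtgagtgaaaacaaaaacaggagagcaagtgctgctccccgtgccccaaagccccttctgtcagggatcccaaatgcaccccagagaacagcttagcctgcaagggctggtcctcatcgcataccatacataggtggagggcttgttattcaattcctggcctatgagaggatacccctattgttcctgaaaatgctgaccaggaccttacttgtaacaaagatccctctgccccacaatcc
Kdr: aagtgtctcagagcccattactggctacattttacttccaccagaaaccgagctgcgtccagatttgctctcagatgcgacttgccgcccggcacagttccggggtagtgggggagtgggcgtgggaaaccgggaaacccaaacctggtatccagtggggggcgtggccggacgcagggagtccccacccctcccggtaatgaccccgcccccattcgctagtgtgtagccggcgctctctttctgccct
Etv2: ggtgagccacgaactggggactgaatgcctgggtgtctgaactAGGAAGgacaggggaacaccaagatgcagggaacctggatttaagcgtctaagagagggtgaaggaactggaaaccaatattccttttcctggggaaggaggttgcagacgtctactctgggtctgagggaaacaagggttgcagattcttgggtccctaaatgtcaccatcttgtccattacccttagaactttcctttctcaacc
The GC content of these windows was 51.2%, 61.6% and 50.0%, against a median of 52.4% over the 32851 windows of the table. In all, 6 of the 10 genes matched the table (all but *Ets1*, *Cdh5*, *Pecam1* and *Sox18*), with 8 windows, *Tal1* and *Gata2* having 2 starts each. The ETS motif stood in 2 of the 8 windows, that of *Etv2* at 207 bases before the start and that of *Flt1* at 129 and 53 bases, and in 29.5% of all windows. The GATA motif AGATAA, also read on both strands and overlapping no ETS match, stood in 1 window, 205 bases before the upstream start of *Tal1*, and in 9.99% of all windows. *Tek*, which rose, and *Kdr*, which fell, held neither string of letters.

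Of the 10 genes, 7 passed the filter on low counts and 5 of these were called (71.4%), against 37.7% of the 15110 genes tested. *Ets1*, *Etv2* and *Kdr* were lower in KD-1 (3 genes; 18.1% of all tested genes were called lower), and *Tek* and *Pecam1* were higher (2 genes; 19.7% of all were called higher). *Gata2* and *Flt1* did not pass the test. *Tal1*, *Sox18* and *Cdh5* were too low for it, and of these *Cdh5* was lower in every KD-1 library than in any Control library. The median log2 fold change of the 7 tested genes was -0.22 and that of all tested genes -0.015. The groups did not overlap for 6 of the 10 genes, the 5 called and the untested *Cdh5*. Those 5 are 71.4% of the 7 tested, against 70.6% of all tested genes. Separation of the libraries alone was thus the common state in this comparison. DESeq2 also called 5 of the 10, with *Cdh5* in the place of *Etv2*, against 31.9% of the 18745 genes to which it gave an adjusted p.

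**Figure D1:**
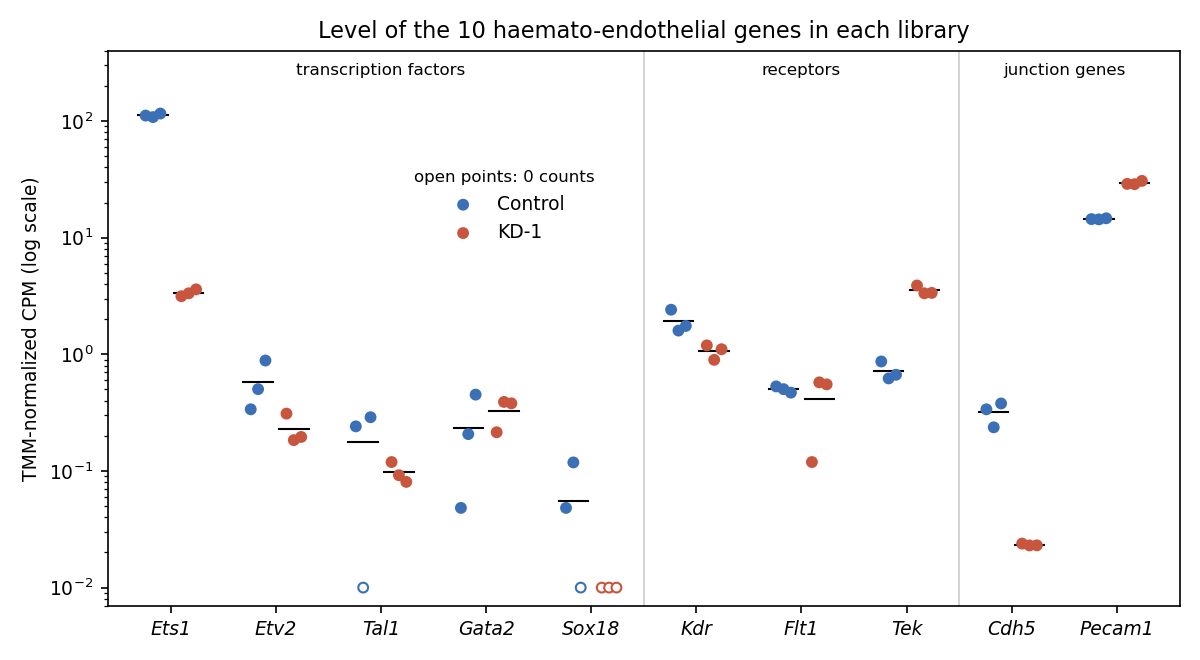
Level of each of the 10 genes in each library, in TMM-normalized CPM on a log axis, with the mean of each group as a line and 0 counts as open points at the bottom. *Ets1* falls from above 100 to below 4 CPM, *Pecam1* and *Tek* lie higher in KD-1, *Cdh5* drops to about 0.02 CPM, and the points of *Tal1*, *Gata2* and *Flt1* overlap.

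*Ets1* (ENSMUSG00000032035; chromosome 9, 32547517 to 32669116, + strand, GRCm39), which encodes the founding member of the ETS family, fell the most of the 7 tested genes. Its level was 111.3, 108.0 and 115.8 CPM in the lowest, middle and highest Control library, and 3.15, 3.33 and 3.60 CPM in those of KD-1. Each group was tight, and the gap between them was far wider than the spread within either. Means were 111.7 ± 3.94 and 3.36 ± 0.229 CPM (SD, n = 3), and KD-1 retained 0.0303 of the Control level (log2 fold change -5.04, SE 0.08; edgeR adjusted p = 2.75e-09). The gene still had 132 to 313 counts per KD-1 library, so it was reduced and not lost.

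*Etv2* (ENSMUSG00000006311; chromosome 7, 30333027 to 30335943, - strand), the factor that opens the haemato-endothelial programme, was scarce in both groups. Counts were 7, 17 and 49 in Control and 13, 8 and 17 in KD-1, or 0.338, 0.503 and 0.884 against 0.310, 0.184 and 0.196 CPM. The lowest Control library and the lowest KD-1 library nearly met, and the deepest Control library stood highest. The log2 fold change was -1.41 (SE 0.47; edgeR adjusted p = 0.0276). This call rests on few counts: without the highest Control library the value was -0.92 with adjusted p = 0.148, without each KD-1 library in turn the adjusted p was 0.0524 to 0.128, and DESeq2 gave an adjusted p of 0.0535.

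*Gata2* (ENSMUSG00000015053; chromosome 6, 88170559 to 88184018, + strand), a zinc finger factor of blood stem cells and endothelium, did not pass the test. It had 1, 7 and 25 counts in Control and 9, 17 and 33 in KD-1. Its CPM, 0.0482, 0.207 and 0.451 against 0.215, 0.391 and 0.380, overlapped between the groups, and Control spread more widely than KD-1. The log2 fold change of 0.30 (SE 0.60; edgeR adjusted p = 0.677) carries an error larger than itself. It ranged from -0.04 without the lowest Control library to 1.22 without the highest.

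*Tal1* (ENSMUSG00000028717; chromosome 4, 114913623 to 114928952, + strand), the bHLH partner of GATA2 in blood progenitors, had 5, 0 and 16 counts in Control and 5, 4 and 7 in KD-1. A Control library without a count lies below every KD-1 library, and another lies above, so the groups overlapped. The pooled ratio of KD-1 to Control was 0.506 (95% exact interval 0.247 to 1.02, counting error only), and no difference was detectable at this depth with all libraries. *Sox18* (ENSMUSG00000046470; chromosome 2, 181311629 to 181313438, - strand), of the SOXF group, had 1, 4 and 0 counts in Control and 0 in each KD-1 library, too few for a fold change. The pooled ratio of 0 has an exact 95% interval that reaches 0.725, for counting error only.

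Among the receptors, *Kdr* and *Tek* went opposite ways. *Kdr* (ENSMUSG00000062960; chromosome 5, 76093487 to 76139884, - strand) was at 2.41, 1.60 and 1.75 CPM in Control and 1.19, 0.896 and 1.11 CPM in KD-1. Every Control library lay above every KD-1 library, with the shallowest Control library highest. The log2 fold change was -0.83 (SE 0.25; edgeR adjusted p = 0.0183), 1.78-fold lower in KD-1. The call was lost without the middle KD-1 library (-0.71; adjusted p = 0.078) and without the highest (-0.85; adjusted p = 0.0603).

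*Tek* (ENSMUSG00000006386; chromosome 4, 94627291 to 94763224, + strand) was at 0.868, 0.621 and 0.668 CPM in Control and 3.89, 3.33 and 3.36 CPM in KD-1. Control gave 18 to 37 counts per library and KD-1 gave 145 to 292, and the groups lay far apart. KD-1 held 5.00-fold more, with a log2 fold change of 2.32 (SE 0.20; edgeR adjusted p = 2e-05), from 2.25 to 2.44 over the 16 alternative settings, all of which called it.

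*Flt1* (ENSMUSG00000029648; chromosome 5, 147498414 to 147662826, - strand), the VEGF receptor that restrains KDR, was at 0.530, 0.503 and 0.469 CPM in Control and 0.119, 0.575 and 0.552 CPM in KD-1. The lowest KD-1 library, with 5 counts, fell below all Control libraries while the other KD-1 libraries lay above them. The log2 fold change was -0.22 (SE 0.53; edgeR adjusted p = 0.732). Without the lowest KD-1 library it turned to 0.19 (adjusted p = 0.714).

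The junction genes also parted. *Pecam1* (ENSMUSG00000020717; chromosome 11, 106543689 to 106641454, - strand) was at 14.42, 14.34 and 14.65 CPM in Control and 28.9, 28.7 and 30.7 CPM in KD-1, with no overlap and little spread. It was 2.03-fold higher in KD-1 (log2 fold change 1.02, SE 0.07; edgeR adjusted p = 4.01e-06), and all 16 alternative settings called it. *Cdh5* (ENSMUSG00000031871; chromosome 8, 104828231 to 104871143, + strand), the cadherin that defines endothelial cells, had 7, 8 and 21 counts in Control and 1, 1 and 2 in KD-1. All KD-1 libraries lay below all Control libraries, 0.0230 to 0.0238 against 0.237 to 0.379 CPM. Pooled, 36 Control counts stood against 4 KD-1 counts, a ratio after scaling by depth of 0.0738 (95% exact interval 0.0191 to 0.206, counting error only). It failed the filter on low counts. In the 6 alternative settings that admitted it, it was called lower each time, with log2 fold changes of -3.83 to -3.59 and adjusted p of 3.24e-04 to 0.0111.

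For the 6 genes whose libraries did not overlap, an exact two-sided permutation test of the mean CPM gave p = 0.1, the smallest that 3 libraries against 3 allow, so the adjusted p-values above rest on the variance model that edgeR shares across genes.

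Levels were compared between the 10 genes as CPM per kilobase of annotated exon. In Control the order was *Ets1* at 13.2 ± 0.464, *Pecam1* at 1.45 ± 0.0161, *Etv2* at 0.388 ± 0.189, *Kdr* at 0.209 ± 0.0470, *Tek* at 0.120 ± 0.0218 and *Cdh5* at 0.0725 ± 0.0167 CPM per kb (mean and SD, n = 3). *Etv2* and *Kdr* overlapped there, and *Flt1*, *Tal1*, *Sox18* and *Gata2* followed between 0.0293 and 0.0367 with each overlapping the next. In KD-1 the order was *Pecam1* at 2.94 ± 0.106, *Tek* at 0.587 ± 0.0520, *Ets1* at 0.396 ± 0.0269, *Etv2* at 0.155 ± 0.0470 and *Kdr* at 0.116 ± 0.0165 CPM per kb, the last pair again overlapping. *Gata2*, *Flt1* and *Tal1* came next, each overlapping its neighbour, before *Cdh5* at 0.00531 and *Sox18* at 0. *Ets1* thus moved from the first place to the third and *Tek* from the fifth to the second.

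**Figure D2:**
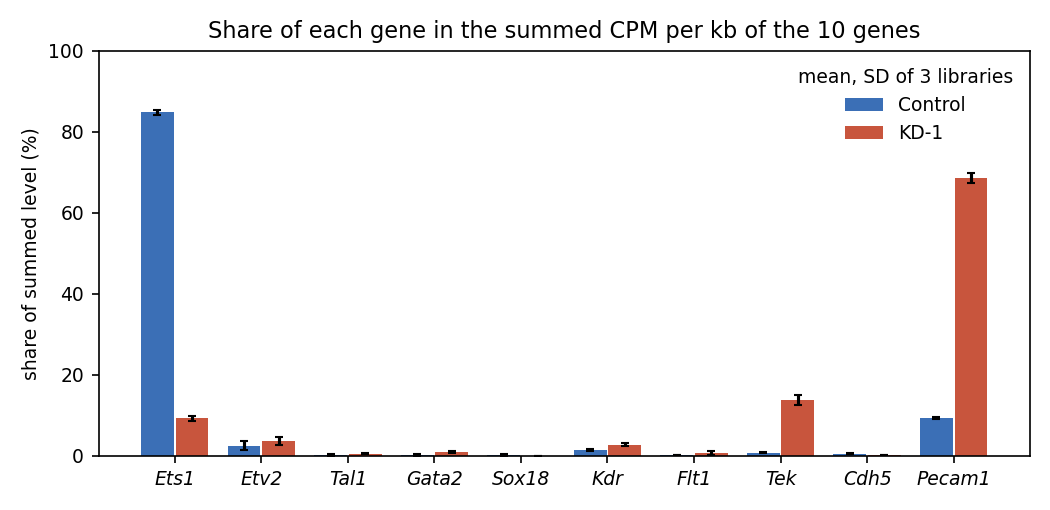
Share of each gene in the summed CPM per kb of exon of the 10 genes, in percent, as the mean of 3 libraries with SD as error bars. *Ets1* makes up 84.8% of the sum in Control and 9.23% in KD-1, and *Pecam1* 9.32% and 68.6%.

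Expressed as shares of the summed level per kb of the 10 genes, *Ets1* held 84.8% ± 0.648 in Control and 9.23% ± 0.547 in KD-1. *Pecam1* held 9.32% ± 0.285 and 68.6% ± 1.33, and *Tek* 0.772% ± 0.145 and 13.7% ± 1.20 (SD, n = 3). *Kdr* held 1.35% and 2.69% although its own level fell, because the sum fell with *Ets1*. The plot of shares shows that these sums follow *Ets1* in Control and *Pecam1* in KD-1 and say little of the other genes.

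Ratios between pairs of the genes in the same library do not depend on the scaling of libraries. Their size, per kb, depends on the exon length taken for each gene, which was the same in both groups. *Pecam1* over *Cdh5*, per kb, was 18.7, 26.6 and 16.9 in Control and 531, 548 and 583 in KD-1, without overlap. *Cdh5* had only 1, 1 and 2 counts in the KD-1 libraries, so the size and the spread of the KD-1 ratios are uncertain. *Kdr* over *Tek* was 1.81, 1.68 and 1.71 in Control and 0.200, 0.176 and 0.215 in KD-1, which places *Kdr* above *Tek* in every Control library and below it in every KD-1 library. *Ets1* over *Pecam1* was 8.87 to 9.32 in Control and 0.128 to 0.139 in KD-1. *Kdr* over *Flt1*, the VEGF receptor and its decoy, was 6.75, 4.72 and 5.54 against 14.9, 2.32 and 2.97, and overlapped. The exact permutation p of the log ratio was 0.9 for *Kdr* over *Flt1* and 0.1, the smallest possible, for the other ratios.

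Beside the 10 genes, 78 further genes of endothelium and blood were counted in 8 lists. Of these, 52 were tested, 20 were called lower and 10 higher in KD-1, and 22 were not called. That is 57.7% called, against 37.7% of all tested genes, with a median log2 fold change of -0.38. Both directions occurred in 6 of the 8 lists. The share called ran from 33.3% of the 9 tested junction and surface genes to 80.0% of the 5 tested blood cell genes. Single lists held few tested genes.

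**Figure D3:**
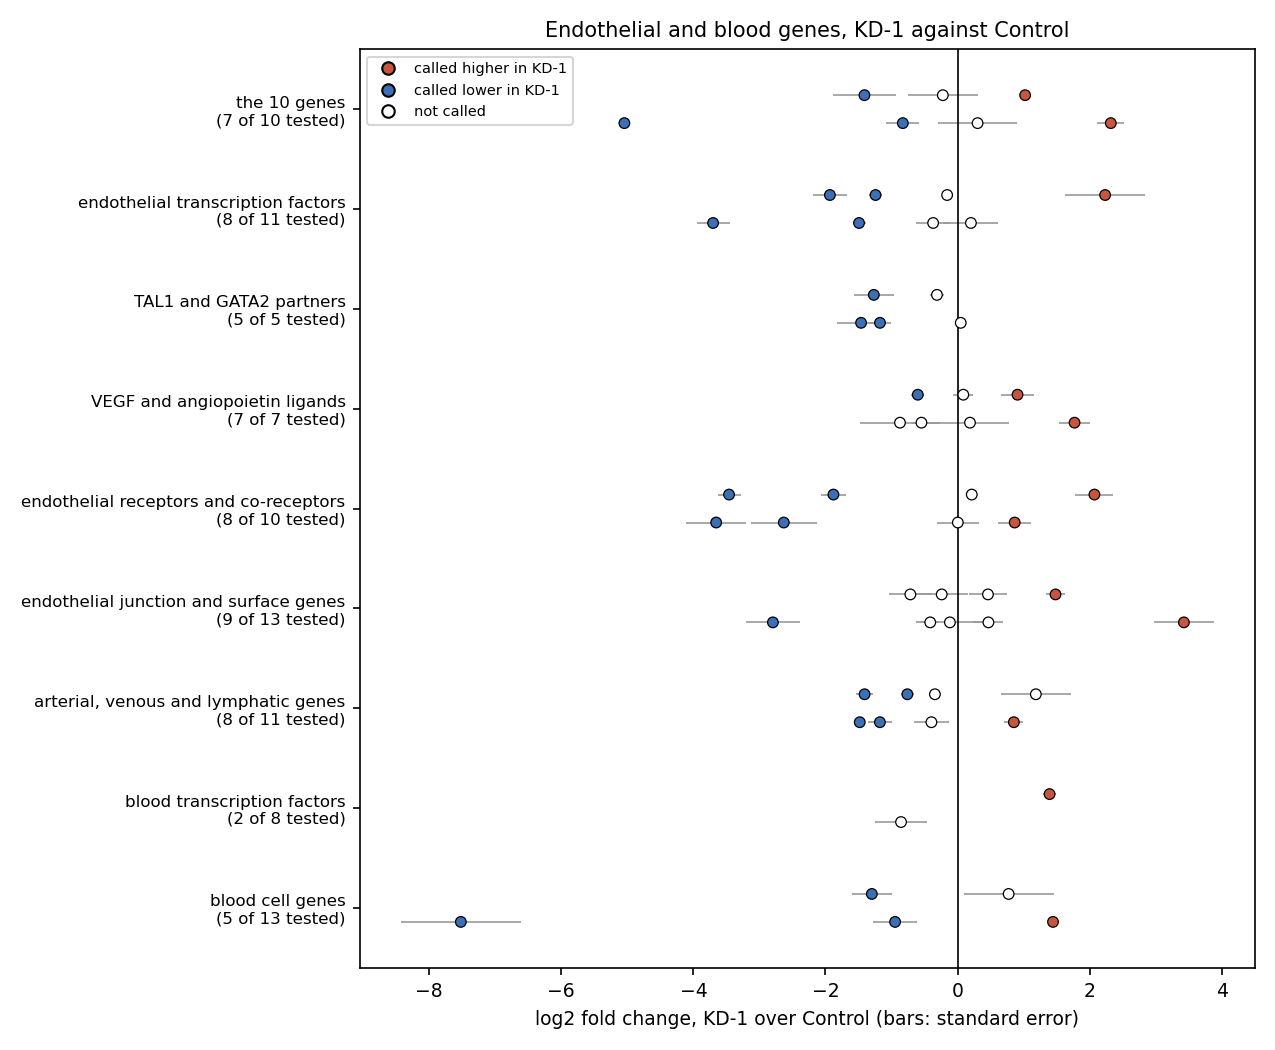
Log2 fold change of KD-1 over Control for each tested gene of the 10 and of the 8 further lists, with standard errors as bars. Red and blue points are called higher and lower and white points are not called. Both colours appear in most rows, and blood transcription factors and blood cell genes have few tested members.

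Endothelial transcription factors gave 4 genes lower, 1 higher and 3 not called of 8 tested (11 listed). *Ets2*, of the family of *Ets1*, was at 23.2 ± 2.37 CPM in Control and 9.79 ± 0.519 in KD-1 (SD, n = 3; log2 fold change -1.24). The log2 fold change was -1.49 for *Elk3*, an ETS factor that represses its targets, -1.93 for *Lmo2*, the bridge between TAL1 and GATA factors, and -3.70 for *Fli1*, the ETS factor that sustains endothelium (edgeR adjusted p at most 2.55e-04 for each of the 4). *Sox7* rose (log2 fold change 2.24, SE 0.61; edgeR adjusted p = 0.0113) and, being a SOXF gene like *Sox18*, is named after its values were seen. It had 13 counts over the Control libraries. The call was lost without the highest Control library (adjusted p = 0.0518) or the lowest KD-1 library (0.0506), and the log2 fold change was 3.41 without the middle Control library. *Sox17*, the remaining SOXF gene, went the other way: it had 4, 9 and 9 counts in Control and 0, 0 and 1 in KD-1, which do not overlap. It was too low for the edgeR test, the pooled ratio was 0.0302 (95% exact interval 7.32e-04 to 0.187, counting error only), and DESeq2 called it lower (log2 fold change -4.95; adjusted p = 0.00335).

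All 5 partners of TAL1 and GATA2 were tested, and 3 were lower. *Tcf3*, the E protein that pairs with TAL1, was at 69.4, 116.2 and 79.6 CPM in Control and 41.6, 36.9 and 39.3 in KD-1 (log2 fold change -1.17, SE 0.17). *Zfpm1* (FOG1), a cofactor of GATA factors, and *Cbfa2t3* (ETO2), a corepressor of the TAL1 complex, had log2 fold changes of -1.27 and -1.46. These latter genes were low, with Control means of 1.65 and 0.837 CPM, and all 3 had an edgeR adjusted p of at most 0.00793. *Ldb1* and *Tcf12* were not called.

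Of the 7 VEGF and angiopoietin ligands, 1 was lower and 2 were higher. *Angpt1*, the activating ligand of TEK, was at 3.47, 1.60 and 2.24 CPM in Control and 7.15, 8.30 and 8.69 CPM in KD-1, 3.42-fold higher (log2 fold change 1.77, SE 0.24; edgeR adjusted p = 2.43e-04), so that receptor and ligand were both called higher. *Vegfd* rose by 0.91 on the log2 scale (edgeR adjusted p = 0.013), a call that was lost without the middle KD-1 library (0.84; adjusted p = 0.0565). *Vegfa*, the ligand of KDR and FLT1, was at 36.0 ± 4.79 CPM in Control and 23.7 ± 0.463 in KD-1 (SD, n = 3), a fold of 1.52 that barely exceeds the threshold, and 8 of the 16 alternative settings, DESeq2 among them, did not call it. *Angpt2*, the ligand that opposes ANGPT1, gave 0.19 (SE 0.59) and was not called.

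Endothelial receptors and co-receptors gave 4 genes lower and 2 higher of 8 tested (10 listed). *Nrp1*, the co-receptor of VEGF and semaphorins, went from 25.6 ± 5.37 to 2.31 ± 0.191 CPM (SD, n = 3), 11.0-fold lower (log2 fold change -3.46, SE 0.17; edgeR adjusted p = 8.04e-07). Log2 fold changes were -1.88 for *Plxnd1*, a semaphorin receptor, -3.65 for *Aplnr*, the apelin receptor of early mesoderm and vessels, and -2.63 for *Acvrl1* (ALK1), an endothelial BMP receptor. *Eng* (endoglin), a co-receptor with ACVRL1 for the same ligands, and *S1pr1*, a receptor for sphingosine 1-phosphate, rose by 2.07 and 0.87 on the log2 scale. The *S1pr1* call was lost without the middle KD-1 library (adjusted p = 0.0615) or the highest (0.0727). These 2 lay outside the naming rule and were chosen after their values were seen. *Nrp2* and *Flt4*, the co-receptor and receptor of lymphatic vessels, were not called.

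Genes of endothelial junctions and surface gave 1 lower and 2 higher of 9 tested (13 listed), and 6 were not called. *Cldn5*, the tight junction claudin of endothelium, was at 0.386, 0.0591 and 0.577 CPM in Control and 3.41, 3.63 and 4.74 CPM in KD-1, 10.8-fold higher (log2 fold change 3.43, SE 0.46; edgeR adjusted p = 2.27e-04). Its size depends on the highest Control library, without which the log2 fold change was 4.37. *Mcam* (CD146) rose by 1.48 on the log2 scale and *Ecscr*, an endothelial surface regulator, fell by 2.80. *Emcn*, outside the rule and chosen after its values were seen, had 3, 12 and 8 counts in Control and 0 in each KD-1 library, at least 11.5-fold lower against a floor of 3 counts over the group. The exact 95% interval of the pooled ratio, for counting error only, reaches 0.116. *Vwf*, *Cd34* and *Esam*, further classical endothelial genes, were not called.

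Of the arterial, venous and lymphatic genes, 4 were lower and 1 higher of 8 tested (11 listed). *Nr2f2* (COUP-TFII), which specifies veins and is also broadly mesenchymal, went from 55.2 ± 10.7 to 20.8 ± 0.620 CPM (SD, n = 3; log2 fold change -1.41). Log2 fold changes were -1.48 for *Ephb4*, the venous ephrin receptor, -1.18 for *Notch4*, an endothelial Notch receptor, and -0.76 for *Hey1*, an arterial Notch target. *Prox1*, the lymphatic factor, rose by 0.85 and is named after its values were seen, and *Lyve1*, another lymphatic gene, had 0 counts in every library.

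Most blood genes were low, and 14 of the 21 listed were not tested. Of 8 blood transcription factors, 2 were tested: *Myb*, a factor of proliferating progenitors, rose from 4.69 ± 0.222 to 12.3 ± 0.412 CPM (SD, n = 3; log2 fold change 1.39), and *Runx1* was not called. Of 13 blood cell genes, 5 were tested, with 3 lower and 1 higher. *Hbb-bh1*, an embryonic globin gene of primitive red cells, had 9, 17 and 28 counts in Control and 0 in each KD-1 library, at least 27.1-fold lower against the same floor, with an exact 95% interval of the pooled ratio that reaches 0.0470. *Itga2b* (CD41), which marks the first blood progenitors, fell by 1.30 on the log2 scale, and *Epor*, the erythropoietin receptor, fell by 0.95, a call that was lost under 7 of the 16 alternative settings, DESeq2 among them. *Kit*, the stem cell factor receptor, was at 24.7, 26.2 and 28.4 CPM in Control and 72.7, 74.0 and 70.2 CPM in KD-1 (log2 fold change 1.45). Globin genes resemble each other closely, and reads could be split between copies, so the globin values are uncertain.

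Markers of several cell types that share these genes differed between the groups. Each marker list held few tested genes, and 37.7% of all tested genes were called in this comparison. Naive pluripotency markers, which *Pecam1* and *Kit* accompany in mESCs, gave 6 genes higher and 0 lower of 8 tested, with a summed level of 438 to 489 CPM in Control and 1403 to 1440 CPM in KD-1 and a median log2 fold change of 1.45. *Pecam1* itself changed by 1.02. The part of pluripotent cells in the *Pecam1* result was not tested. All 7 tested markers of paraxial mesoderm and somite (8 listed) were lower, the summed level going from between 466 and 518 to between 45.4 and 45.9 CPM, with a median log2 fold change of -3.26. Most of the Control sum was *Meox1* (mean 371.1 CPM, against 0.423 in KD-1). Most of the KD-1 sum was *Pax3* (mean 42.2 CPM, against 89.6 in Control). The *Mesp2* call was lost under 4 of the 6 runs that left out a library (without the middle or highest library of either group; adjusted p 0.0519 to 0.143) and the *Tbx6* call without the highest KD-1 library (0.0642). Their part in the lower *Ets1*, *Kdr* and *Nrp1* was not tested.

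Neural crest markers, a further site of *Ets1*, went mostly the other way from it, with 3 higher and 1 lower of 5 tested and a summed level of 10.3 to 14.0 CPM in Control and 30.9 to 33.6 CPM in KD-1. *Sox10*, the defining marker, was at 0 counts in Control and 3 to 6 in KD-1. Lateral plate and cardiac mesoderm, a source of endothelium in the embryo, gave 1 higher (*Bmp4*) and 2 lower (*Foxf1* and *Isl1*) of 4 tested (8 listed). The *Isl1* call was lost without the lowest or highest KD-1 library, with edgeR adjusted p of 0.0712 and 0.0846. Summed levels of the list overlapped, at 3.02 to 3.86 CPM in Control and 3.36 to 4.16 CPM in KD-1, but the sum mixes opposite changes. Mean *Bmp4* went from 1.18 to 2.60 CPM, *Foxf1* from 0.709 to 0.0389 and *Isl1* from 0.788 to 0.321. The uncalled *Tbx20* had means of 0.343 and 0.731 CPM. *Gata6*, too low for the edgeR test, had 4, 5 and 22 counts in Control and 0, 3 and 5 in KD-1. Its CPM did not overlap, and DESeq2 called it lower (log2 fold change -2.48, DESeq2 adjusted p = 0.0448). *Hand1* had 0 counts in Control and at most 2 in KD-1, and *Nkx2-5* had at most 3 in Control and 0 in KD-1.

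Trophoblast markers gave 2 higher of 3 tested (*Eomes* and *Tfap2c*), while *Prl3d1* and *Tpbpa*, which define the differentiated lineage, had 0 counts in every library. Of definitive endoderm, a source of SOX17, 1 marker was higher (*Trh*) and 1 lower (*Cer1*) of 2 tested, the latter 243.8-fold lower (14.6 against 0.0460 CPM). The 3 others listed, *Foxa2*, *Sox17* and *Gsc*, were too low to be tested. *Foxa2* had 2, 1 and 1 counts in Control and 6, 5 and 9 in KD-1, the opposite direction to *Sox17* and *Cer1*. The summed level of the list, 131.9 to 156.6 CPM in Control and 260.2 to 269.0 CPM in KD-1, is nearly all *Trh* (means of 130.3 and 264.9 CPM) and does not describe *Sox17* or *Cer1*. Without the highest KD-1 library the log2 fold change of *Cer1* was -9.09 in place of -7.93. Fibroblast genes, counted as a check on feeder cells, were lower for 3 of 3 tested (6 listed; *Col1a1* was lost without the middle or highest KD-1 library, with adjusted p of 0.0602 and 0.0618), with summed levels of 8.20 to 8.90 and 0.477 to 0.495 CPM. The endothelium list, of which *Cdh5*, *Pecam1* and *Tek* are members, gave 3 higher and 0 lower of the 5 that passed the edgeR filter, while DESeq2 also called *Cdh5* (log2 fold change -3.75; adjusted p = 0.00103) and *Emcn* (-5.95; adjusted p = 8.3e-04) lower. The list had summed levels of 24.2 to 26.2 CPM in Control and 42.2 to 45.8 CPM in KD-1, in which *Pecam1* was the largest term. Primitive blood gave 2 lower of 2 tested, with sums of 1.86 to 2.36 and 0.541 to 0.739 CPM. The part of each of these cell types in the values of the 10 genes was not tested.

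**Figure D4:**
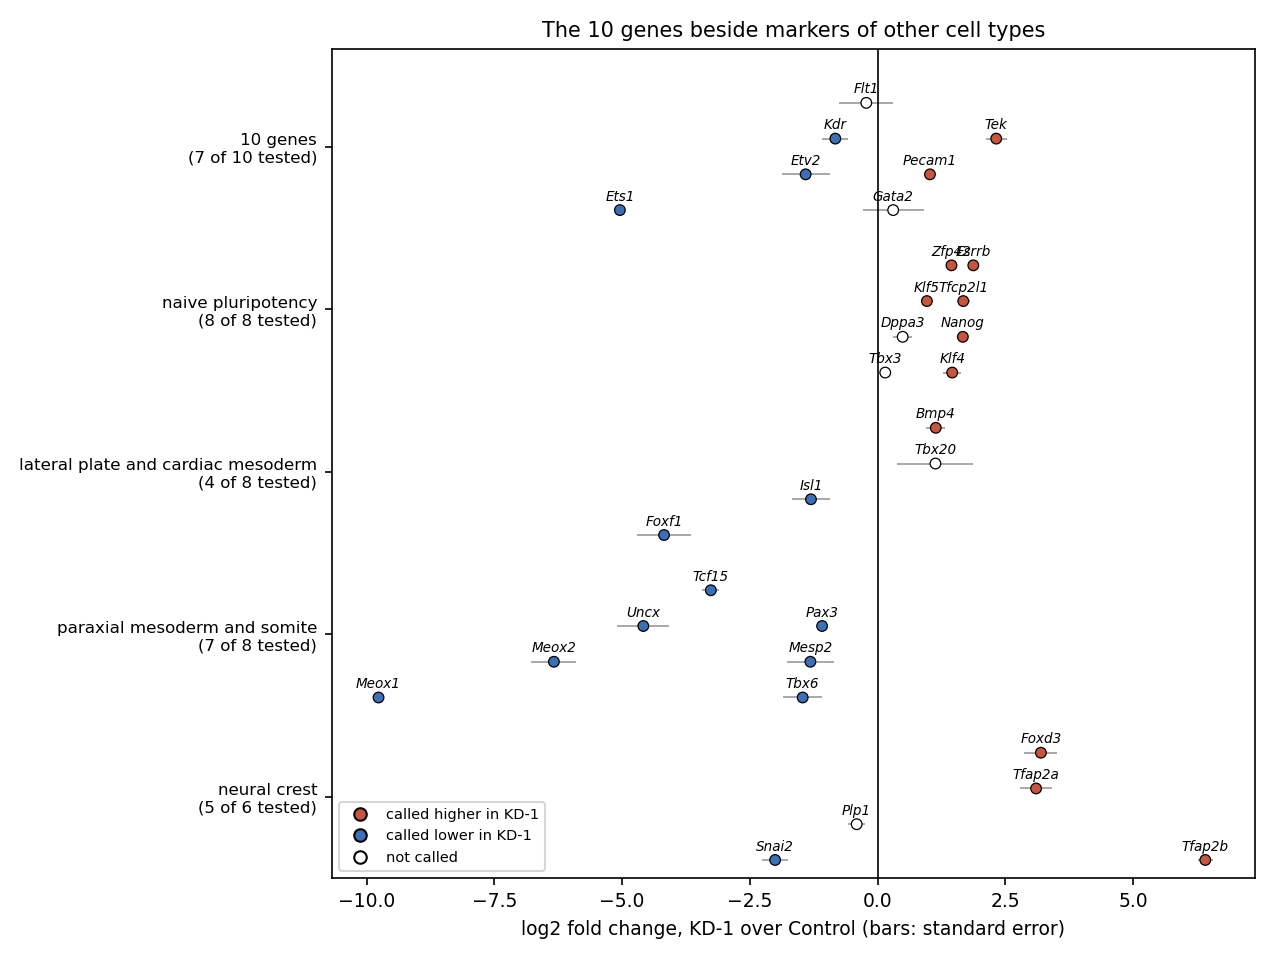
Log2 fold change of KD-1 over Control, with standard errors as bars, for the tested genes of the 10 and for tested markers of 4 other cell types. Naive pluripotency markers lie to the right of 0, paraxial mesoderm and somite markers to the left, and the 10 genes on both sides.

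The nearest tested protein-coding gene on either side of each of the 10 genes was also examined (GENCODE vM39, GRCm39). Of these 20 neighbours, 8 were called, 4 higher and 4 lower, against 37.7% of all tested genes. *Fli1* lies 93.4 kb from *Ets1*, and both ETS genes were lower, with log2 fold changes of -3.70 and -5.04. *Kit* lies 276 kb from *Kdr* and rose by 1.45 while *Kdr* fell by 0.83. *Tex2*, 39.4 kb from *Pecam1*, rose by 0.95 and *Mysm1*, 59.1 kb from *Tek*, by 0.60, each in the direction of the gene beside it.

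Next to *Etv2*, *Rbm42* fell by 0.78 on the log2 scale at a distance of 4.37 kb. The remaining called neighbours stood beside genes that were not called: *Cyp4x1* rose by 0.85 near *Tal1*, *Rpn1* fell by 0.62 near *Gata2* and *Tcea2* fell by 0.85 near *Sox18*. Without the middle Control library *Mysm1* (0.47) and *Rpn1* (-0.55) no longer passed the fold change threshold. Of the 20 neighbours, 5 kept their status under all 16 alternative settings. Settings that changed or removed the fold change threshold move calls by construction. Under the others, only *Kirrel3*, *Stil*, *Rpn1* and *Mysm1* changed status. The annotated genes that overlap the 10 are long non-coding RNAs without a row in the count table.

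**Figure D5:**
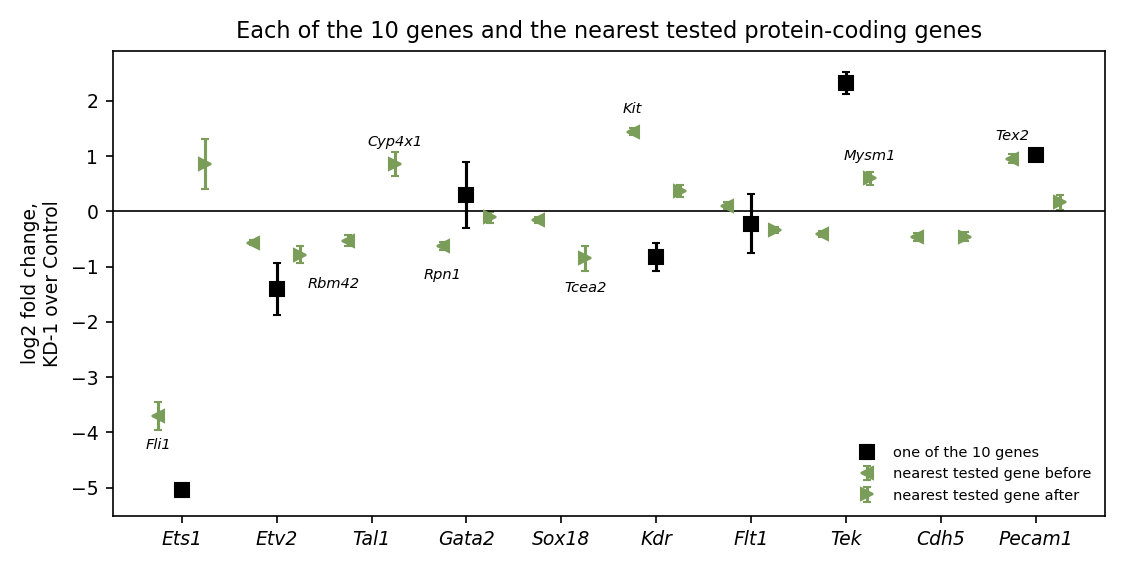
Log2 fold change of KD-1 over Control, with standard errors, for each tested gene of the 10 (squares) and for the nearest tested protein-coding gene before and after it on the chromosome (triangles). Called neighbours are named. *Ets1* and *Fli1* lie lowest, and *Kit* lies above 0 beside *Kdr* below it.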

How the data were processed

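RNA of 6 gastruloid samples was extracted with Trizol and made into libraries with an Illumina TruSeq kit. Per the labels and the methods, the authors demultiplexed with bcl2fastq and estimated transcript abundance with Salmon 1.1 against a Gencode annotation; the species and build were not given in the sources used here. The deposited table holds estimated counts per Ensembl gene, which were rounded to whole numbers. Names, exon lengths and positions came from GENCODE vM39 (35222 of 35565 identifiers matched), and promoters from RefSeq.

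Counts were tested across 15110 genes that passed filterByExpr, with TMM factors, glmQLFit (robust) and glmQLFTest of edgeR 4.0.16 in R 4.3.3, KD-1 against Control, without covariates. DESeq2 1.42.0, limma 3.58.1 (voom), other scalings, filters and thresholds, and each library left out in turn were the alternatives, 16 in all. The script was tested on simulated data. Libraries of a group differed by more than sampling noise (chi-square per degree of freedom 4.67 to 34.3).

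The 10 genes and all lists were chosen with earlier results of these data known. Named genes were the 10, up to 4 called genes per list by level (lower first), genes at or under 3 counts in every library where the lineage name turns on them, and called neighbours. Markers, and genes that were not called, are named as examples of their lists and were chosen after their values were seen. A further marker list is not reported here. Intervals on pooled counts are exact binomial (Clopper-Pearson).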

Additional observations from a re-analysis of the deposited data

How the results depend on the processing

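No call reversed its direction. Of the 10 genes, the uncalled *Flt1* changed sign without the lowest KD-1 library and the uncalled *Gata2* without the lowest Control library. Uncalled genes of the further lists changed sign too, such as *Esam*, with log2 fold changes from -0.567 to 0.211 over the alternative settings. The count of genes called was 3274 with an absolute log2 fold change over 1 required and 9597 with no fold change threshold, in place of 5704, by construction of the threshold. Leaving out 1 library in turn gave between 2 and 5 of the 10 genes called lower, in place of 3; the highest value came without the middle Control library, the one with 0 counts of *Tal1*, when *Tal1* and *Cdh5* were admitted and called as well. *Ets1*, *Tek* and *Pecam1* were called under all 16 alternative settings, and *Etv2* and *Kdr* were not called under 5 and 3 of the settings that tested them. Of the 30 further genes called, 23 kept their call in every setting that tested them. Scaling moved the median of all genes by less than 0.1 on the log2 scale. Measuring length by the longest transcript in place of all exons moved 13 of the 20 levels per kb by more than 1 SD. No paired analysis was possible because the columns of the count table carry no replicate numbers that match those of the samples. Depth limits *Tal1*, *Sox18*, *Cdh5*, *Etv2*, *Gata2* and *Flt1*, which had 0 to 49 counts per library.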
